A study of Mus musculus and Homo sapiens with 4 samples.

Results

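Expression of 35 genes of collagens and extracellular matrix proteins was compared in 2 tumour cell lines in which Merm1 was knocked down. Members were all probe sets whose platform symbol is one of 35 listed genes, matched without regard to case. The rule uses no measured value, but the list was drawn up with earlier results of these data known. They came to 82 of 45101 probe sets on the mouse array and 114 of 54675 on the human array. On the mouse array 79 of the 82 named a single gene, which covered 33 of the 35 members, and 3 also named another gene. On the human array 113 of the 114 named a single gene and covered all 35. The study measured total RNA on 4 Affymetrix arrays, 1 array per group. The groups were LM8 mouse osteosarcoma cells stably infected with the retroviral vector pSIREN-RetroQ carrying a hairpin against mouse Merm1, LM8 cells infected with the control vector, A375M human melanoma cells infected with the same vector carrying a hairpin against human Merm1, and A375M cells infected with the control vector. Merm1, also named Wbscr22 and today Bud23 in mouse and BUD23 in human, encodes a methyltransferase that acts on ribosomal RNA. All 4 groups thus carried a retroviral hairpin vector. The LM8 cells grew in MEM and the A375M cells in DMEM, both with fetal serum. The labels do not say whether an infected line was a clone or a pool.

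The extracellular matrix is the protein and sugar scaffold that cells secrete around themselves. Fibrillar collagens give it tensile strength, and a sheet-like basement membrane of collagen IV, laminins and nidogens lies under epithelia and around muscle, nerve and vessels. Collagen VI filaments, fibronectin, fibulins and proteoglycans tie the layers together, lysyl oxidases cross-link them, and the plasminogen activators start a protease cascade that degrades them. Osteoblasts, the cell type that osteosarcoma resembles, deposit a bone matrix rich in collagen I, while melanoma cells are known for their contact with fibronectin, laminins and tenascin during invasion.

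Values were the deposited log2 RMA expression values per probe set, and every difference is the knock-down array minus the control array of the same line, so a difference of 1 is 2-fold. Each group held 1 array. The differences therefore come without replicates, standard errors or p-values, and 1 array per group bounds their precision. A gene was read from its probe set with the highest mean of both arrays and was kept when it lay above the 50th percentile of the array, 5.28 in LM8 knock-down and 5.29 in LM8 control, and 4.67 in A375M knock-down and 4.64 in A375M control, on at least 1 array. Of the 33 mouse members 31 were kept, and of the 35 human members 30 were kept. The level of a probe set depends on its probes, so levels of different genes are not ranked here. As a technical gauge, the SD between the differences of a gene's kept probe sets had a median of 0.11 over 18 members in LM8 and 0.086 over 22 members in A375M, against 0.12 and 0.071 over all such genes. The target transcript read 8.48 in LM8 knock-down and 10.61 in LM8 control, and 8.38 in A375M knock-down and 10.70 in A375M control, so it was lower in both arrays labelled knock-down. Identical readings on the A375M arrays were found for 42.5% of the 113 member probe sets and 45.4% of all non-control probe sets. In LM8 they were found for 0 of 79 and 0.706%. What step gave the identical readings is not known here, so they do not measure a lack of change.

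Osteoblast markers checked the LM8 label, and 7 of 7 measured ones lay above the array median in both LM8 arrays, among them the bone transcription factor gene Sp7 at 10.94 in knock-down and 11.11 in control. Melanocyte markers checked the A375M label, and 8 of 9 measured ones lay above the median in both A375M arrays, among them SOX10 at 11.53 in knock-down and 11.62 in control. The pigment gene TYR read 6.04 in both A375M arrays, and MLANA lay near the median at 5.19 in knock-down and 4.84 in control. The lists were not exclusive to a line. Above the median in both arrays lay 4 of 10 measured melanocyte markers in LM8 and 4 of 9 osteoblast markers in A375M. Of the leukocyte markers 2 of 6 measured, Cd14 and Csf1r, lay above the median in both LM8 arrays, and of the endothelial markers 2 of 7, Vwf and Kdr. The defining markers Ptprc (3.46 in knock-down and 3.09 in control), Pecam1 (3.91 in knock-down and 3.96 in control) and Cdh5 (3.91 in knock-down and 4.02 in control) lay below it. In both A375M arrays 3 of 6 measured leukocyte markers and 4 of 7 endothelial markers lay above the median. Among them was PECAM1, at 5.45 in knock-down and 5.32 in control, whereas PTPRC and CDH5 lay below it.

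In LM8 matrix transcripts were mostly higher in the knock-down array. Of 31 kept members 25 were higher and 6 lower, with a median difference of 0.19, whereas 53.8% of all 11646 kept genes were higher and their median was 0.015. Col3a1, Postn, Fbln1 and Col4a1 were at least 1.5-fold higher, which is 4 of 31 members beside 1.16% of all kept genes, and 0 members were at least 1.5-fold lower beside 1.31%. Of these 4, Col3a1, Postn and Fbln1 passed 2-fold, beside 0.155% of all kept genes higher and 0.318% lower by that much. By at least 0.32 on the log2 scale 12 members were higher beside 5.78% of kept genes and 1 member, Lama4, was lower beside 5.28%. With all probe sets of a gene averaged, 20 of 28 kept members were higher and 8 lower, the median was 0.094, and 2 members, Col3a1 and Postn, were at least 1.5-fold higher, beside 51.6% of all genes higher and 0.660% higher by that much under the same averaging. A count of this kind describes these arrays and cannot separate an effect of the hairpin from a difference between independently infected lines. In a bulk sample, fewer cells of a type and less RNA per cell cannot be told apart.

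**Figure D1:**
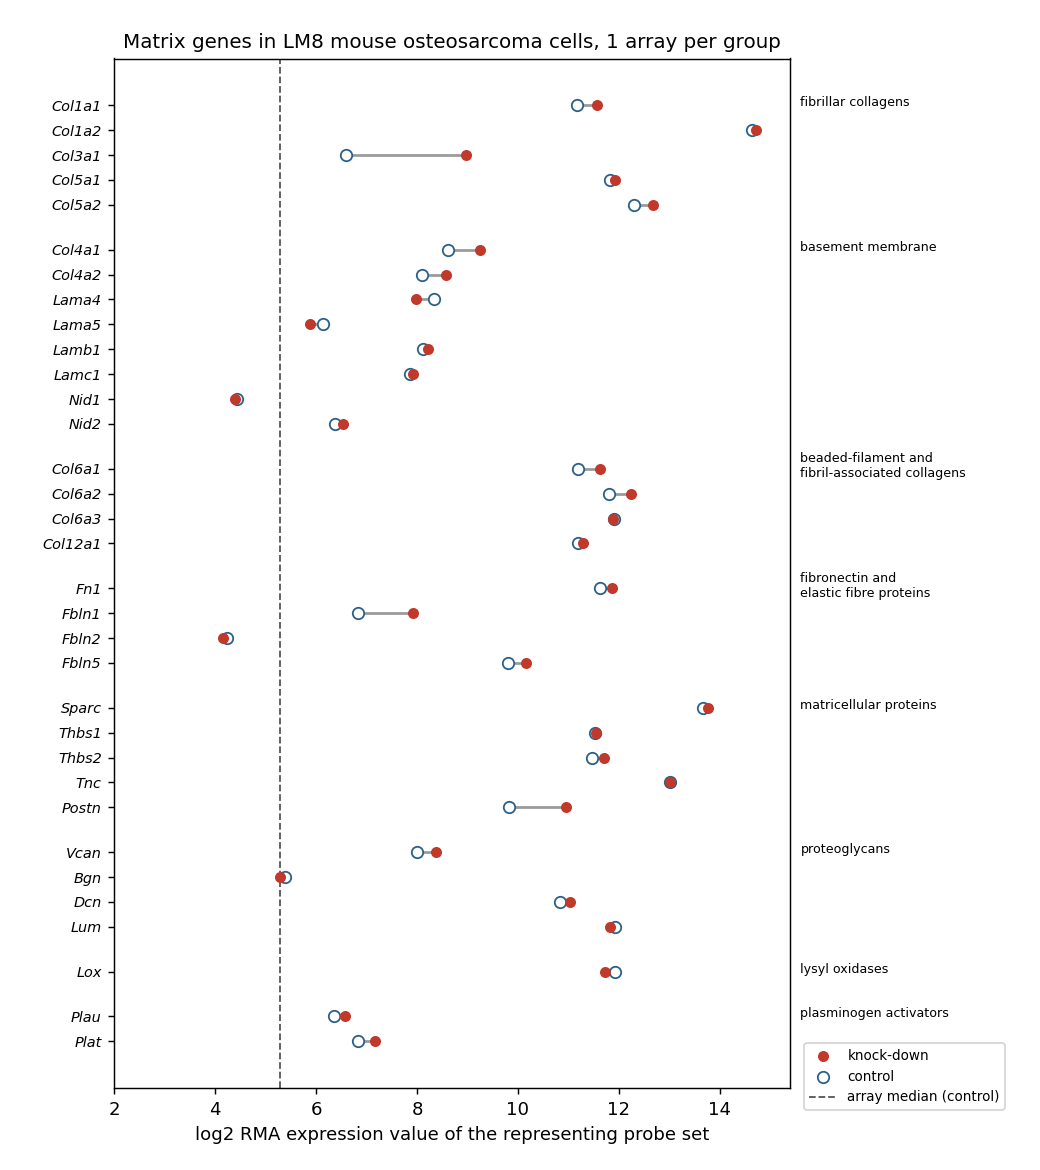
Log2 RMA values (horizontal axis) of the 33 mouse members with a probe set of their own, grouped by role, in the LM8 knock-down array (filled points) and the LM8 control array (open points), with a dashed line at the control array's median of 5.29. The widest gaps between the points belong to Col3a1, Postn and Fbln1, and Nid1 and Fbln2 lie left of the dashed line.

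The fibrillar collagens were higher in 5 of 5 cases, with a median difference of 0.38. Col3a1, which encodes the collagen of compliant tissues such as skin and vessel wall, read 8.96 in LM8 knock-down and 6.59 in LM8 control, a difference of 2.37 or 5.16-fold higher. It was the highest difference of all 11646 kept genes. Its other probe set lay below the array median, at 4.52 in knock-down and 3.37 in control, and differed by 1.154 in the same direction. Col1a1, an alpha chain of the main bone collagen, read 11.57 in knock-down and 11.16 in control, and its 2 kept probe sets differed by 0.38 ± 0.036 (SD, n = 2 probe sets). Col1a2, the partner chain, read 14.73 in knock-down and 14.63 in control, a difference of 0.095, and its 3 kept probe sets ran from -0.36 to 0.17. The lowest belongs to its dimmest kept probe set, at 6.92 in knock-down and 7.28 in control. Of the chains of type I collagen, Col1a1 was thus higher on each kept probe set and Col1a2 on all but the dimmest.

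Collagen V chains copolymerise with type I collagen and limit fibril width. Col5a2 read 12.67 in knock-down and 12.30 in control and differed by 0.43 ± 0.078 over its probe sets (SD, n = 2), while Col5a1 read 11.93 in knock-down and 11.82 in control and differed by 0.13 ± 0.13 (SD, n = 3).

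The windows before the start sites of Col3a1, Postn and Fbln1, the members at least 2-fold higher in LM8, are shown so that the letters they do and do not share can be read. They are the 250 bases before the first listed start in RefSeq on GRCm38.p6, 5′ to 3′ on the gene's strand. Letters matching the TATA box TATAAA, the CAAT box CCAAT, the GC box GGGCGG or the AP-1 element TGANTCA on either strand are in capitals. These motifs do not overlap one another in the windows shown. The Col3a1 window is chr1:45311288-45311537, that of Postn chr3:54359017-54359266 and that of Fbln1 chr15:85205699-85205948, all on the plus strand.
Col3a1: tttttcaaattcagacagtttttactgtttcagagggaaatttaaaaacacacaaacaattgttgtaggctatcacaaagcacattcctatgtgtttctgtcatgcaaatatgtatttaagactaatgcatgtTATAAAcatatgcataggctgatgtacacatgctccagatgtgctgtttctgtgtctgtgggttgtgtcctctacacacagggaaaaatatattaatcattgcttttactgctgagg
Postn: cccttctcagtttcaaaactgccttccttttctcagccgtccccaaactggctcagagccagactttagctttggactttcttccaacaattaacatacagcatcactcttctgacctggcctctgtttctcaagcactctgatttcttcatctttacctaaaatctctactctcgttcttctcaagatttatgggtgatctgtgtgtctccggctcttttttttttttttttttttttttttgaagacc
Fbln1: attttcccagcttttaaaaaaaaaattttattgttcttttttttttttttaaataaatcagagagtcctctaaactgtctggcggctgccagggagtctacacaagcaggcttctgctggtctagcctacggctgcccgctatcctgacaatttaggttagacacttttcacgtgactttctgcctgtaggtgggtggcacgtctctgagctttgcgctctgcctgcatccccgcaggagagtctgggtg
The Col3a1 window held 1 TATA box and none of the other motifs, and the Postn and Fbln1 windows shown held none of the 4. Of all 32851 windows listed, 12.4% held the TATA box, 33.8% the CAAT box, 32.7% the GC box and 6.75% the AP-1 element. Windows existed for 21 of the 35 members, and by the first listed start 3 of those held the TATA box, 8 the CAAT box, 13 the GC box and 1 the AP-1 element. The GC content was 35.2% for Col3a1, 40.4% for Postn and 46.4% for Fbln1, against a median of 62.0% over the 21 members and 52.4% over all windows. A GC content close to that of Fbln1 was also found for Tnc, at 44.8%, and Thbs2, at 46.8%. Their differences in LM8 were 0.012 and 0.24. Another start is listed for Postn and for Fbln1, and from it the Postn window held 1 TATA box at a GC content of 52.0% and the Fbln1 window 1 GC box at 62.4%, so the matches depend on the start used. A motif match describes letters and shows no binding.

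Basement membrane genes went both ways in LM8, with 5 of 7 kept members higher and a median of 0.094. Col4a1 and Col4a2, whose chains form the collagen IV network of most basement membranes, were both higher. Col4a1 read 9.24 in LM8 knock-down and 8.61 in LM8 control, a difference of 0.63 or 1.54-fold higher, with the other kept probe set at 0.40. Col4a2 read 8.58 in knock-down and 8.10 in control, a difference of 0.48. The start sites of these genes lie head to head, and their 300-base promoter windows in the RefSeq table share 78 bases on opposite strands. The laminin chain gene Lama4 read 7.98 in knock-down and 8.33 in control, a difference of -0.35, the lowest of all kept members in LM8. Lama5 read 5.89 in knock-down and 6.13 in control, a difference of -0.25. The laminin genes Lamb1 (8.22 in knock-down, 8.13 in control) and Lamc1 (7.91 in knock-down and 7.85 in control) differed by 0.094 and 0.062, within the gauge. Nid2, which encodes a nidogen linking laminin to collagen IV, read 6.54 in knock-down and 6.38 in control, and Nid1 lay below the median at 4.38 in knock-down and 4.42 in control. Neither direction held for the whole family, since the collagen IV genes Col4a4 and Col4a5, read from a separate list, differed by -0.64 and -0.39 and the laminin alpha chain gene Lama2 by 0.37. Of these, Col4a5 lay above the median only in control (4.91 in knock-down, 5.30 in control). Lama2 did so only in knock-down (5.61 in knock-down, 5.24 in control). The laminin gene Lamb2 differed by 0.053.

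Of the collagen VI genes, which encode the chains of a beaded filament, Col6a1 and Col6a2 were higher by nearly the same amount and Col6a3 was not. Col6a1 read 11.62 in LM8 knock-down and 11.19 in LM8 control, a difference of 0.44. Col6a2 read 12.23 in knock-down and 11.80 in control, and its kept probe sets differed by 0.43 ± 0.011 (SD, n = 2). Col6a3 read 11.88 in knock-down and 11.90 in control, a difference of -0.018. Col12a1, a collagen that decorates fibril surfaces, read 11.29 in knock-down and 11.20 in control and differed by 0.16 ± 0.085 over its kept probe sets (SD, n = 2). Among protein-coding genes of the mouse reference 4 pairs of members are direct neighbours. They are Col3a1 with Col5a2 (differences of 2.37 and 0.38), Col4a1 with Col4a2 (0.63 and 0.48), Col6a2 with Col6a1 (0.43 and 0.44), and Dcn with Lum (0.19 and -0.083). In 3 of the 4 pairs both genes were higher in the knock-down array, where 25 of all 31 kept members were higher. Whether position bears on the differences was not tested.

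Fn1 encodes fibronectin, the adhesive glycoprotein that integrins assemble into fibrils. Its bright probe set read 11.87 in LM8 knock-down and 11.63 in LM8 control, a difference of 0.24, while its dimmer one read 6.33 in knock-down and 6.65 in control, a difference of -0.32, so the direction depended on the probe set. The fibulins bind elastic fibres and basement membranes. Fbln1 read 7.92 in knock-down and 6.83 in control, a difference of 1.09 or 2.12-fold higher. Its other kept probe sets differed by 0.47 and -0.10, and the mean over all was 0.48 ± 0.59 (SD, n = 3), so the size of this difference rests on 1 probe set. Fbln5 read 10.16 in knock-down and 9.80 in control, a difference of 0.37, and Fbln2 lay below the median at 4.15 in knock-down and 4.23 in control. Fbn1, which encodes the microfibril protein fibrillin, was not analysed here in LM8.

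Matricellular proteins act as signals in the matrix more than as scaffold. Postn, which encodes periostin, a protein abundant in periosteum and in healing tissue, read 10.96 in LM8 knock-down and 9.82 in LM8 control, a difference of 1.145 or 2.21-fold higher on its single probe set. Thbs2, a thrombospondin gene, read 11.71 in knock-down and 11.47 in control on the brightest of 3 kept probe sets, which differed by 0.24, 0.33 and 0.76. Sparc, the gene of the bone protein osteonectin, read 13.76 in knock-down and 13.67 in control, with kept probe sets from -0.075 to 0.11. Thbs1 read 11.55 in knock-down and 11.52 in control, and a further probe set that also names Pald1 read 12.87 in knock-down and 12.93 in control. Tnc, the tenascin gene, read 13.02 in knock-down and 13.01 in control on its bright probe set but 7.49 in knock-down and 7.99 in control on the dimmer one, a difference of -0.50. Postn and Thbs2 thus differed in 1 direction on every kept probe set, and Sparc, Thbs1 and Tnc did not.

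The proteoglycan core protein genes split evenly. Vcan, the versican gene, read 8.37 in LM8 knock-down and 7.99 in LM8 control, and its kept probe sets differed by 0.24 ± 0.14 (SD, n = 3). Dcn, the gene of the fibril-binding decorin, read 11.03 in knock-down and 10.84 in control, a difference of 0.19. Its relative Lum, the lumican gene, read 11.83 in knock-down and 11.92 in control, a difference of -0.083. Bgn, the biglycan gene, read 5.27 in knock-down and 5.37 in control, at the array median. Lox, which encodes the enzyme that starts collagen cross-links, was lower, at 11.72 in knock-down and 11.92 in control, with kept probe sets at -0.20 and -0.28. Both probe sets for Loxl2 also name the predicted gene Gm21451 and read 8.77 in knock-down and 8.82 in control, and 6.88 in knock-down and 7.17 in control. The relatives Loxl1, Loxl3 and Loxl4 differed by 0.47, 0.031 and 0.035, so the genes of this enzyme family went both ways. Loxl1 was kept only through its knock-down array, at 5.30 in knock-down and 4.83 in control. The plasminogen activator genes were both higher, with Plat, the tissue-type activator, at 7.16 in knock-down and 6.83 in control, a difference of 0.33. Plau, the urokinase gene, read 6.58 in knock-down and 6.35 in control, with kept probe sets at 0.23 and 0.43.

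Fibroblast and smooth muscle markers, like the matrix genes, were mostly higher in the LM8 knock-down array. Of 9 measured markers 7 were kept, 6 of them higher and 1 lower, beside 53.8% higher and 46.0% lower among all kept genes. Their median difference was 0.18, beside 0.015 for all kept genes. The higher differences of Cnn1, 0.023, and Tagln, 0.11, were within the gauge. The log2 of the summed linear signal of all 9 came to 14.50 in knock-down and 14.40 in control. S100a4 read 13.54 in knock-down and 13.34 in control. Pdgfrb read 10.56 in knock-down and 10.31 in control, and Fap 9.33 in knock-down and 9.07 in control, whereas Acta2 read 12.86 in knock-down and 12.98 in control. Thy1 and Myh11 lay below the array median. These genes are also expressed by mesenchymal tumour cells, and their part in the matrix differences was not tested.

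Fewer of all kept genes passed 1.5-fold in A375M than in LM8, where 1.16% were higher and 1.31% lower. In A375M the members that differed by at least 1.5-fold were all lower. Of 30 kept members 15 were lower, 6 higher and 9 identical in both arrays, with a median of -0.0020, beside 40.3% lower and 29.0% higher among all 13244 kept genes and a median of 0. COL12A1, FBLN5 and COL6A3 were at least 1.5-fold lower, which is 3 of 30 members beside 0.37% of all kept genes, and 0 members were at least 1.5-fold higher beside 0.378%. The same 3 were the only members lower by at least 0.32 on the log2 scale, beside 2.78%, and 0 were that much higher, beside 2.11%. At 2-fold 0 members were called, beside 0.0453% of kept genes lower and 0.0831% higher. The direction of the small differences depended on the scaling. After repeated quantile normalization, which gives identical values small differences, 19 of the 30 were higher and 11 lower, and after each array was centred on its median 6 were higher and 24 lower.

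**Figure D2:**
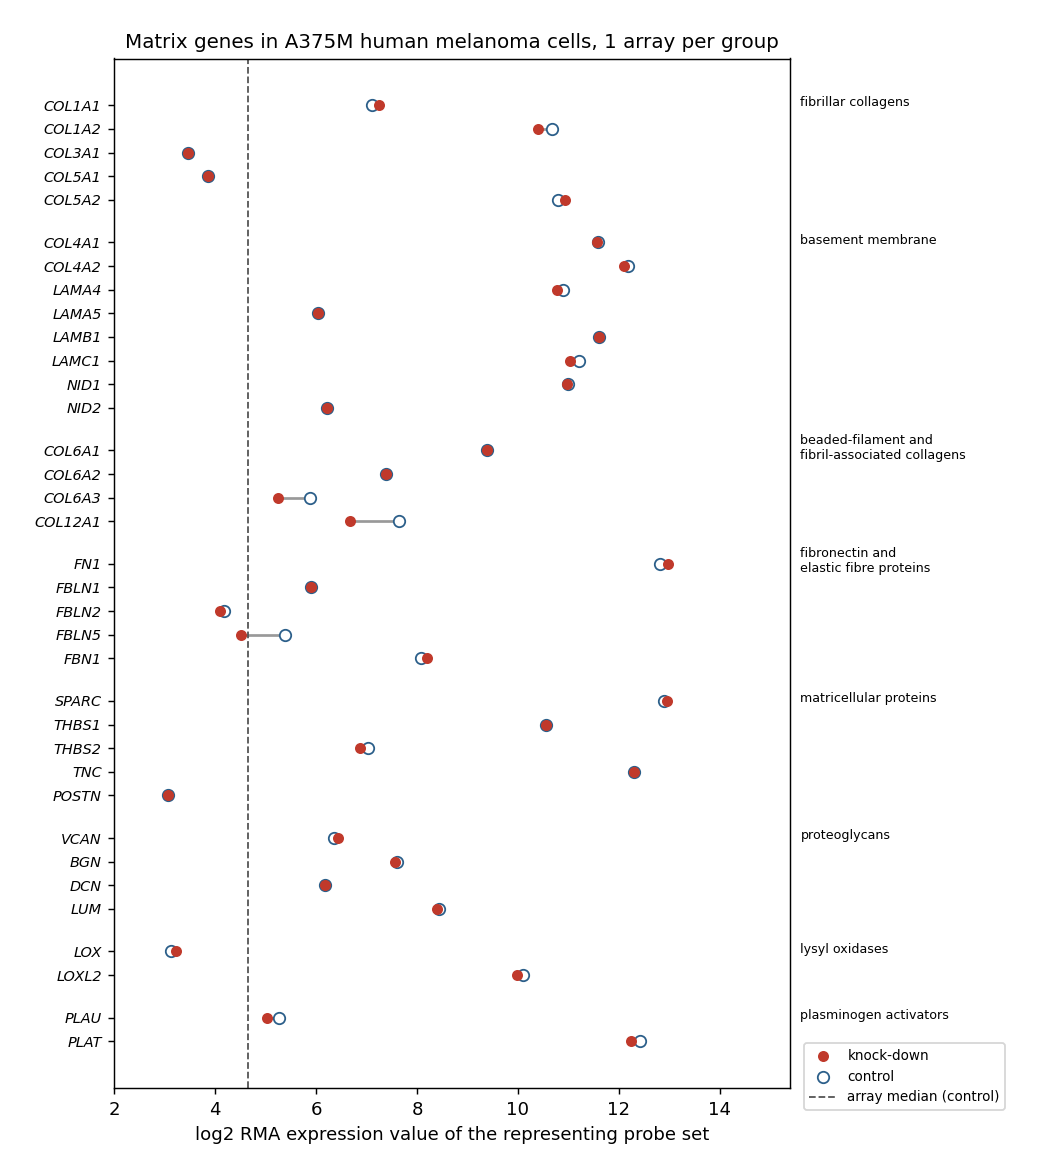
Log2 RMA values (horizontal axis) of the 35 human members, grouped by role, in the A375M knock-down array (filled points) and the A375M control array (open points), with a dashed line at the control array's median of 4.64. COL12A1, COL6A3 and FBLN5 show the widest gaps, all with the knock-down point on the left, while COL3A1, COL5A1, POSTN, LOX and FBLN2 lie left of the dashed line in both arrays.

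COL12A1 read 6.66 in A375M knock-down and 7.64 in A375M control, a difference of -0.98 or 1.97-fold lower. Its other kept probe set read 4.62 in knock-down and 5.10 in control, a difference of -0.48, and of its 3 dim probe sets 2 were lower and 1 higher, so that the mean over all 5 was -0.39. COL6A3 read 5.25 in knock-down and 5.89 in control on its single probe set, a difference of -0.64 or 1.56-fold lower. COL6A1 at 9.39 and COL6A2 at 7.38 gave identical readings in both arrays, and kept COL6A1 probe sets ran from -0.18 to 0. COL6A3 was thus at least 1.5-fold lower in A375M, where identical readings say little about the genes of its partner chains. In LM8 Col6a3 read alike in both arrays while the genes of its partner chains were higher.

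FBLN5, whose product helps to assemble elastic fibres, read 4.51 in A375M knock-down and 5.39 in A375M control on its single probe set, a difference of -0.88 or 1.84-fold lower. In knock-down it lay below the median of its array, so that side of the difference rests on a dim signal. FBLN1 read 5.90 in both arrays, and FBLN2 lay below the median at 4.09 in knock-down and 4.17 in control. FBN1, the fibrillin gene, read 8.20 in knock-down and 8.08 in control, a difference of 0.12. FN1 was higher on every kept probe set. Its probe set of highest mean read 12.98 in knock-down and 12.81 in control, a difference of 0.17, and its 6 kept probe sets differed by 0.31 ± 0.14 (SD, n = 6 probe sets) and up to 0.51 on the dimmest kept one. Those probe sets share a transcript and an array, so they are no replicates of the condition, and 5 of the 6 are marked as shared between transcripts.

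**Figure D3:**
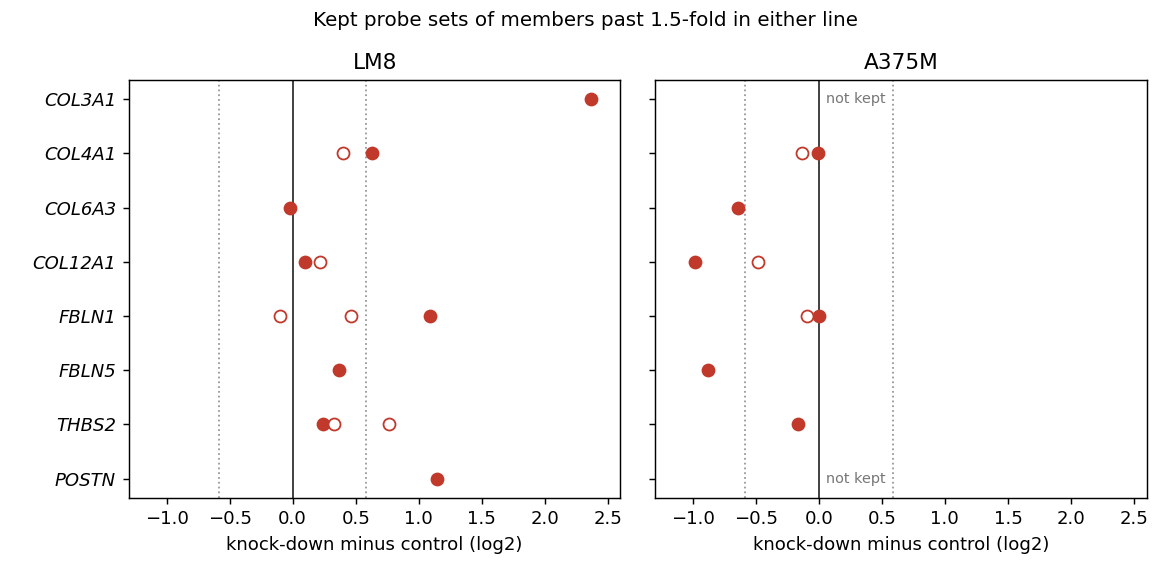
Difference of knock-down minus control (log2, horizontal axis) for every kept probe set of the members that passed 1.5-fold on at least 1 kept probe set in LM8 (left) or A375M (right). Filled points are the probe sets that represent the gene, open points its other kept probe sets, and dotted lines mark 1.5-fold. COL3A1 and POSTN rest on 1 kept probe set each, FBLN1 in LM8 spreads from -0.10 to 1.09, and the filled points of COL6A3, COL12A1 and FBLN5 lie left of the lower dotted line in A375M only.

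Basement membrane genes gave 0 higher, 5 lower and 3 identical among 8 kept members in A375M, with a median of -0.0058 and no member past 0.32. LAMC1 read 11.03 in A375M knock-down and 11.22 in A375M control, with kept probe sets at -0.19 and -0.28. LAMA4 read 10.78 in knock-down and 10.89 in control, and its 4 kept probe sets ran from -0.36 to 0. These laminin genes were lower by more than the gauge on part of their probe sets. COL4A2 read 12.11 in knock-down and 12.18 in control, with kept probe sets at -0.075 and -0.19, and COL4A1 11.57 in knock-down and 11.58 in control, with -0.0077 and -0.13. NID1 read 10.978 in knock-down and 10.982 in control, with its other kept probe sets at -0.13 and 0. LAMB1 at 11.60, NID2 at 6.22 and LAMA5 at 6.03 were identical, as was a further LAMA5 probe set that also names its antisense gene LAMA5-AS1, at 5.96. The pair COL4A1 and COL4A2, higher in LM8, was therefore at or slightly below the control level in A375M.

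Of the fibrillar collagen genes 3 of 5 were kept in A375M. COL1A2 read 10.39 in A375M knock-down and 10.67 in A375M control, a difference of -0.28, with its other kept probe sets at -0.020 and -0.042. COL1A1 read 7.24 in knock-down and 7.11 in control and COL5A2 10.93 in knock-down and 10.80 in control, each with another kept probe set that was identical. COL3A1 at 3.46 and COL5A1 at 3.86 lay below the array median with the same value in both arrays, so the gene with the highest difference in LM8 gave no usable signal in A375M. The same holds for POSTN at 3.06.

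Matricellular genes other than POSTN showed small differences or identical readings in A375M. SPARC read 12.95 in A375M knock-down and 12.89 in A375M control, with kept probe sets at 0.057 and 0.095. THBS2 read 6.87 in knock-down and 7.04 in control, a difference of -0.16. TNC at 12.30 and THBS1 at 10.55 were identical on the representing probe sets, and other kept probe sets reached 0.24 for TNC and -0.19 for THBS1. Among proteoglycan genes VCAN read 6.43 in knock-down and 6.36 in control, with 1 of its 3 kept probe sets at 0.47. LUM (8.40 in knock-down and 8.43 in control) and BGN (7.56 in knock-down and 7.60 in control) differed by less than the gauge and DCN was identical at 6.17. LOXL2, an amine oxidase of the lysyl oxidase family, read 9.98 in knock-down and 10.10 in control, a difference of -0.12, while LOX lay below the median at 3.23 in knock-down and 3.13 in control. PLAT read 12.25 in knock-down and 12.41 in control, a difference of -0.16, and PLAU 5.03 in knock-down and 5.27 in control, a difference of -0.24. Both plasminogen activator genes were thus lower in A375M on their kept probe sets, by less than 0.32. A further PLAU probe set, below the median, read 4.39 in knock-down and 4.28 in control.

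Across the lines 27 members were kept in both, with 4 more kept in LM8 only and 3 in A375M only. Higher in LM8 and lower in A375M were 9 members, which is 33.3% beside 24.0% of the 8981 genes kept in both lines and matched by symbol. A further 5 were higher in both (COL1A1, COL5A2, FN1, SPARC and VCAN), beside 14.9% of those genes, 4 were lower in both (COL6A3, LAMA4, LUM and BGN), beside 20.7%, and 9 were identical in A375M. These counts go by sign alone and include differences within the gauge. Examples are COL4A1 at -0.0077 and LUM at -0.025 in A375M, and COL6A3 at -0.018 in LM8. The sign of the small A375M differences also depended on the scaling. By at least 0.20 on the log2 scale in both lines differed only FBLN5, at 0.37 in LM8 and -0.88 in A375M, and PLAU, at 0.23 and -0.24, both in opposite directions, beside 1.92% of those 8981 genes, and 0 members passed it in 1 direction, beside 1.51%. Probes differ between the mouse and the human design, so the differences are set side by side and were not tested against each other.

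**Figure D4:**
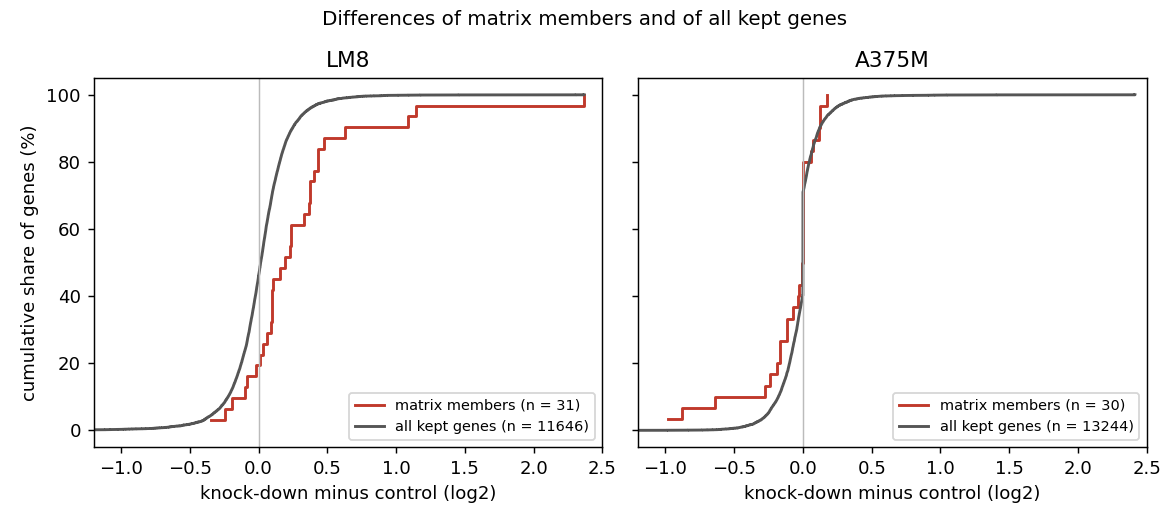
Cumulative share of genes (percent, vertical axis) against the difference of knock-down minus control (log2, horizontal axis) in LM8 (left) and A375M (right), for the matrix members and for all kept genes. A few genes beyond the left edge are not drawn. The member curve runs to the right of the curve of all genes over most of the LM8 panel. In A375M both curves step up at 0, with 50% of members and 40.3% of all kept genes lower, and 20% and 29.0% higher.

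Genes that work with these proteins were read from 7 lists. In LM8 the collagen modification and secretion genes were balanced, with 10 higher and 10 lower of 20 kept and a median of -0.0060. P4ha3, a subunit gene of prolyl 4-hydroxylase, was the one member past 1.5-fold, at 5.73 in LM8 knock-down and 5.01 in LM8 control. Its control reading lay below the array median, so that side of the difference rests on a dim signal. Other matrix glycoproteins and proteoglycans had 18 higher and 7 lower of 25 kept and a median of 0.14, with Mgp, an inhibitor of calcification, at 11.03 in knock-down and 9.88 in control and Fbln7 at 8.77 in knock-down and 7.96 in control. Other collagens went both ways, with 5 higher and 7 lower of 12 kept. Col8a1 read 9.30 in knock-down and 10.00 in control, Col9a1 10.54 in knock-down and 9.89 in control, and Col4a4 6.60 in knock-down and 7.24 in control. The metalloproteinase and inhibitor list had 5 higher and 6 lower of 11 kept, and the collagenase gene Mmp13 read 10.30 in knock-down and 8.23 in control, 2.08 higher. Of 20 kept receptor genes 13 were higher, with Itgb3 at 5.71 in knock-down and 4.93 in control, the latter also below the array median. Of the plasmin system 3 of 5 kept were higher, among them the endocytic receptor gene Lrp1 at 8.77 in knock-down and 8.12 in control, and the other lysyl oxidase and transglutaminase list had 3 of 3 kept higher with none past 1.5-fold.

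In A375M the same lists had medians between -0.097 and 0.021. Receptor genes had 13 lower, 3 higher and 4 identical of 20 kept, with a median of -0.071, and plasmin system genes 4 lower and 1 higher of 5. Collagen modification and secretion genes had 11 lower, 6 higher and 6 identical of 23, and other matrix glycoproteins and proteoglycans 12 lower, 11 higher and 8 identical of 31. TGFBI, a collagen-binding adhesive protein gene, read 11.19 in A375M knock-down and 11.92 in A375M control, a difference of -0.73. COL11A1, a fibrillar collagen gene, read 5.66 in knock-down and 4.87 in control, and MMP8, a collagenase gene, 9.26 in knock-down and 8.59 in control, differences of 0.79 and 0.67. Fibroblast and smooth muscle markers in A375M had 5 higher, 0 lower and 3 identical of 8 kept, beside 29.0% higher and 40.3% lower among all kept genes. Their part in the matrix differences was not tested.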

How the data were processed

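Total RNA of 4 infected cell lines was labelled with biotin and hybridised to Affymetrix arrays, per the labels' protocols. What the authors deposited is 1 log2 value per probe set and array. The submitters' processing notes name RMA, without a version, as the step behind these values. Because RMA forces the arrays onto a common distribution, a shift of all genes is invisible. Groups were taken from the sample titles. Gene symbols came from the platform annotation, mouse symbols were updated through RefSeq gene IDs (GRCm38.p6), and probe sets with several symbols named no gene. Differences were counted at 1.5-fold, with 2-fold and 0.32 on the log2 scale beside it. The members, the lists and the 1.5-fold threshold were chosen with earlier results of these data known, and that earlier account used 2-fold, at which 0 members are called in A375M. Values are given for every member, and for at most 3 genes past 1.5-fold per list and line. Differences are also given for some relatives of members in those lists that did not pass 1.5-fold. A limma 3.58.1 fit across both lines was an alternative. Some members and list genes were not analysed here. Promoter windows came from RefSeq, GRCm38.p6, and no human windows were used.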

Additional observations from a re-analysis of the deposited data

Results flagged for a closer look

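FBLN5 was higher in LM8 (0.37) and lower in A375M (-0.88), and the difference between the lines came to 1.24 on the log2 scale. PLAU did the same at 0.23 in LM8 and -0.24 in A375M, 0.47 apart. They were the 2 of 27 members that differed by at least 0.20 in both lines in opposite directions, beside 1.92% of the 8981 genes kept in both. In A375M knock-down FBLN5 lay below the array median, at 4.51. A further PLAU probe set, below the median in both A375M arrays, differed by 0.12 in the other direction. Each line had 1 array pair, and the difference between the lines was not tested.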

How the results depend on the processing

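In LM8 the count of 4 members at least 1.5-fold higher was 2 when all probe sets of a gene were averaged, which left Col3a1 and Postn and gave 0.52 for Col4a1 and 0.48 for Fbln1. It was 12 at a threshold of 0.32, where 1 was lower. In A375M the averages left COL6A3 and FBLN5 at least 1.5-fold lower and COL12A1 at -0.39. The count of 3 lower members was 1, COL12A1, with the filter at the 70th percentile and with 32 added before the log2, where COL6A3 was at -0.38 and FBLN5 at -0.43, and 0 at 2-fold. Under the other alternatives these counts stayed within 1.5 times, and the member median stayed within the gauge, from 0.094 to 0.22 in LM8 and from -0.060 to 0.017 in A375M. Leaving out probe sets identical in both arrays was added after seeing the data and gave -0.060 over 26 A375M members. The BUD23 difference in A375M was -1.22 as the mean of its probe sets, -0.12 without shared probe sets, where only a dim one remains, and -2.21 with 32 added. A limma fit over 27 members and 8981 genes kept in both lines, with the line as a replicate block, takes the 2 species as replicates. It gave 0 members with an adjusted p under 0.05 and 1 with an unadjusted p under 0.05 (COL1A1), beside 3.10% of all genes. Precision is limited by 1 array per group.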
